A study of Mus musculus with 10 samples.

Results

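Astrocytes wrap brain capillaries with flattened processes called endfeet, and 8 genes that serve water and potassium handling there are described: Aqp4, Kcnj10, Kcnj16, Atp1b2, Dag1, Dtna, Mlc1 and Hepacam. They were taken by name from a table of 22198 genes, with earlier results of these data known, and all 8 passed the filter on low values. Cortex was sampled from mice aged 6 months, with 5 libraries labelled BKO, whose genotype is given as a knockout of Mic19, and 5 labelled ctrl, whose genotype is given as wild type for Mic19. No group was treated. The labels name neither a promoter, Cre line or cell type for the knockout nor a sex or strain. They also do not say that each library is a separate mouse. The p-values therefore set a difference against the spread between these libraries, which may be technical in part. The values are FPKM (fragments counted on a gene, divided by its length and by the mapped fragments of the library), which allow levels of different genes to be set side by side because they are per length. Whole cortex was measured, so fewer cells of a type and less RNA per cell cannot be told apart.

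As background, the endfoot membrane that faces the vessel holds arrays of aquaporin-4, the main water channel of the brain. Astrocytes take up the potassium that firing neurons release through inwardly rectifying channels and through the sodium pump, and water follows the ions. A protein complex built on dystroglycan ties the channels to the basal lamina of the vessel, and MLC1 with its partner GlialCAM sits at the junctions between endfeet and takes part in the control of cell volume.

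Chchd3, the gene of Mic19, showed no lower level under the BKO label. It averaged 88.2 ± 4.54 FPKM in libraries labelled BKO and 78.4 ± 3.53 FPKM in libraries labelled ctrl (SD, n = 5 each), and 4 of 5 BKO libraries exceeded every ctrl library. The limma adjusted p was 0.0528, and it was 0.0226 with an equal sum for each library, 0.0240 with quantile normalization, 0.0289 without BKO 4 and 0.0403 without ctrl 5, each time with the higher level in BKO. Every direction below is therefore a direction between libraries as labelled. The summed FPKM of a library lay between 730340 and 766786, and 13438 to 13720 genes reached 1 FPKM. Read depth is unknown. A relative depth was approximated by median ratios between libraries over genes without signal in 5 or more libraries (24 to 56 genes a pair). It was 0.975 ± 0.0992 in BKO and 1.04 ± 0.147 in ctrl (SD, n = 5 each, exact permutation p = 0.452, 2-sided). Such ratios may also carry differences in expression. Genes of excitatory and inhibitory cortical neurons were present, with Slc17a7 at 644 ± 49.8 FPKM in BKO and 658 ± 23.8 FPKM in ctrl, and Gad1 at 217 ± 5.73 FPKM in BKO and 216 ± 8.92 FPKM in ctrl (SD, n = 5 each). Libraries differed in transcripts of the choroid plexus, the tissue that secretes cerebrospinal fluid: 10 markers summed to 1125 to 2768 FPKM in 6 libraries (BKO 1, 2 and 5, and ctrl 1, 3 and 5) and to 46.6 to 95.3 FPKM in the other 4.

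Both potassium channel subunits, the water channel and the pump subunit were higher in the libraries labelled BKO, and the 4 genes of the dystroglycan complex and of the MLC1 pair did not pass the test. Kcnj16 was 1.62 times, Aqp4 1.57 times, Kcnj10 1.43 times and Atp1b2 1.28 times its ctrl mean. Of the 8 genes, 4 were called higher and 0 lower at an adjusted p under 0.05, against 3.32% of all 14447 genes tested called higher, 2.46% called lower and 5.79% called in either direction. An unadjusted p under 0.05 was reached by 5 of the 8 genes, and by 17.5% of all genes tested. The median log2 fold change was 0.20 over the 8 genes and -5.25e-05 over all genes tested. In 4 of the 8 genes every BKO library exceeded every ctrl library, a separation that 3.62% of all genes tested showed in that direction, 3.09% in the other and 6.71% in either. Since the 8 genes were chosen with earlier results known, these shares are background and not a test of the set.

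**Figure D1:**
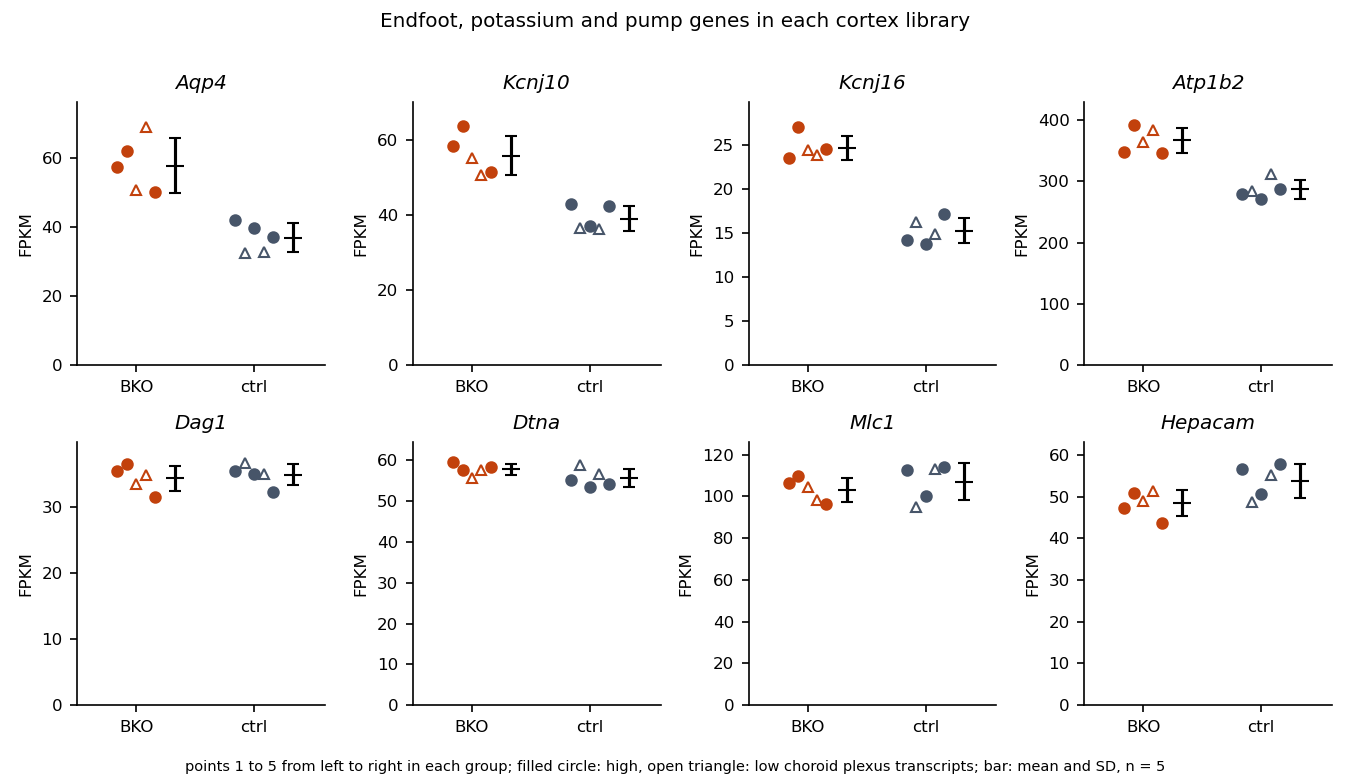
FPKM of the 8 genes, 1 panel a gene, with each point 1 library (5 labelled BKO at left, 5 labelled ctrl at right) and the bar the mean with its SD, on axes that start at 0. The BKO points lie wholly above the ctrl points for Aqp4, Kcnj10, Kcnj16 and Atp1b2, and the groups overlap for Dag1, Dtna, Mlc1 and Hepacam.

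The 8 genes covered a wide range of levels, and the order differed in part between the groups. In the BKO libraries Atp1b2 was highest, at 347 to 392 FPKM, followed by Mlc1 at 96.3 to 109.7 FPKM. Dtna (55.7 to 59.5 FPKM), Aqp4 (50.2 to 68.8 FPKM), Kcnj10 (50.7 to 63.6 FPKM) and Hepacam (43.7 to 51.3 FPKM) came next, each overlapping its neighbour, and Dag1 (31.6 to 36.5 FPKM) and Kcnj16 (23.6 to 27.1 FPKM) stood clear below them. In the ctrl libraries Atp1b2 (272 to 312 FPKM) and Mlc1 (94.99 to 114 FPKM) led as well, but Dtna (53.6 to 58.8 FPKM) was there followed by Hepacam (48.6 to 57.8 FPKM), with which it overlapped. Kcnj10 (36.2 to 42.9 FPKM), Aqp4 (32.5 to 42.1 FPKM) and Dag1 (32.4 to 36.8 FPKM) overlapped in turn in ctrl, and Kcnj16 (13.8 to 17.2 FPKM) was again lowest. Hepacam thus stood wholly above Aqp4 and Kcnj10 in the ctrl libraries, whereas its values overlapped with those of both in the BKO libraries. Among all genes tested, mean levels ran from the percentile 54.7 for Kcnj16 to the percentile 97.8 for Atp1b2.

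The spread between libraries was small for most of the 8 genes. The coefficient of variation was lowest for Dtna, at 2.45% in BKO and 3.78% in ctrl, and highest for Aqp4, at 13.6% in BKO and 11.5% in ctrl. BKO 2 was the highest BKO library for Kcnj10, Kcnj16, Atp1b2, Dag1 and Mlc1, and BKO 5 was the lowest for Aqp4, Atp1b2, Dag1, Mlc1 and Hepacam. These positions were noticed after the values were seen. The ctrl libraries had no such common top: ctrl 1 led for Aqp4 and Kcnj10, ctrl 5 for Kcnj16, Mlc1 and Hepacam, ctrl 2 for Dag1 and Dtna, and ctrl 4 for Atp1b2.

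Aqp4 encodes aquaporin-4, and it rose. Its level was 57.3, 61.9, 50.7, 68.8 and 50.2 FPKM in BKO 1 to 5, against 42.1, 32.5, 39.7, 32.7 and 37.2 FPKM in ctrl 1 to 5. The lowest BKO library, BKO 5, was above the highest ctrl library, ctrl 1, and BKO 4 stood highest. The means were 57.8 ± 7.85 FPKM in BKO and 36.8 ± 4.24 FPKM in ctrl (SD, n = 5 each), a log2 fold change of 0.64 (SE 0.0928, limma adjusted p = 0.000441).

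Of 11 other aquaporin genes only Aqp1, Aqp9 and Aqp11 passed the filter on low values, and 0 were called in either direction, with 2 at an unadjusted p under 0.05. Aqp11, which lies in internal membranes, averaged 14.3 ± 0.562 FPKM in BKO and 16.04 ± 1.06 FPKM in ctrl (SD, n = 5 each; log2 fold change -0.16, SE 0.0616, limma adjusted p = 0.185). Aqp9, which also passes glycerol, averaged 1.44 ± 0.456 FPKM in BKO and 0.728 ± 0.302 FPKM in ctrl (SD, n = 5 each; log2 fold change 0.66, SE 0.203, limma adjusted p = 0.0811). Aqp1, the water channel of the choroid plexus, averaged 2.23 ± 1.94 FPKM in BKO and 0.814 ± 1.04 FPKM in ctrl (SD, n = 5 each), and it is 1 of the 10 choroid plexus markers summed above.

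Kcnj10 encodes Kir4.1, the main inwardly rectifying potassium channel of astrocytes, which oligodendrocytes make as well, and Kcnj16 encodes Kir5.1, which forms channels together with Kir4.1. Both rose. Kcnj10 was at 58.2, 63.6, 55.2, 50.7 and 51.3 FPKM in BKO 1 to 5, against 42.9, 36.4, 37.1, 36.2 and 42.2 FPKM in ctrl 1 to 5. BKO 2 was highest, and even BKO 4, the lowest of its group, was above ctrl 1, the highest ctrl library. The means were 55.8 ± 5.31 FPKM in BKO and 39.0 ± 3.30 FPKM in ctrl (SD, n = 5 each), a log2 fold change of 0.51 (SE 0.0707, limma adjusted p = 0.000291).

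Kcnj16 was at 23.6, 27.1, 24.5, 23.9 and 24.6 FPKM in BKO 1 to 5, against 14.3, 16.3, 13.8, 14.9 and 17.2 FPKM in ctrl 1 to 5. BKO 2 stood above the other BKO libraries, and the groups were apart by more than the range within either. The means were 24.7 ± 1.40 FPKM in BKO and 15.3 ± 1.43 FPKM in ctrl (SD, n = 5 each), a log2 fold change of 0.68 (SE 0.0685, limma adjusted p = 1.45e-05).

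The promoters of these 2 subunits, which rose together, are shown as the 250 bases before a RefSeq transcript start, 5′ to 3′ on the gene's strand, in GRCm38.p6. Capitals mark matches to 4 motifs searched on both strands: the GC box GGGCGG, the C/EBP core TTGCNNAA, the STAT core TTCNNNGAA and the TATA box TATAAA, none of which overlapped another. The windows are Kcnj10 at chr1:172340960-172341209 on the plus strand and the first of 4 starts of Kcnj16 at chr11:110967783-110968032 on the plus strand.
Kcnj10: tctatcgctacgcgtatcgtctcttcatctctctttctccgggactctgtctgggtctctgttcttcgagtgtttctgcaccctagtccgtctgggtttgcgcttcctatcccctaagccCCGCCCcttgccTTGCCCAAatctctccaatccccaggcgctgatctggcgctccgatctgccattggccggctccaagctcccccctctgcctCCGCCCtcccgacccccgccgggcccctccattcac
Kcnj16: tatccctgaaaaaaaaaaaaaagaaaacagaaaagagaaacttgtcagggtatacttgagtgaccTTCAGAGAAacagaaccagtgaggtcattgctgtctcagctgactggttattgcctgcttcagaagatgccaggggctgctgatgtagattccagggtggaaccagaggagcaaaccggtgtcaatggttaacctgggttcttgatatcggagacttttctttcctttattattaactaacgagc
The window of Kcnj10 was rich in G and C, at 62.0%, and held 2 GC boxes, 130 and 36 bases before the start, and 1 C/EBP core 118 bases before it. The first window of Kcnj16 was at 42.8% G and C and held 1 STAT core 185 bases before the start, with no GC box. Over all 32851 promoter windows of the same length, the median G and C content was 52.4%, and 32.7% held a GC box, 9.56% a C/EBP core, 7.02% a STAT core and 12.4% a TATA box. Of the other 3 starts of Kcnj16, 1 held a GC box 46 bases before the start, 1 a TATA box 133 bases before it and 1 held no match. A match describes letters and is no evidence of binding. The table held windows for 5 of the 8 genes.

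No other gene of the inward rectifier family passed the test. Of 13 other Kcnj genes 10 were tested and 0 were called in either direction, with a median log2 fold change of -0.029 and 1 at an unadjusted p under 0.05. Kcnj4, a neuronal member and the highest of the list, averaged 115 ± 9.73 FPKM in BKO and 115 ± 6.76 FPKM in ctrl (SD, n = 5 each). Kcnj9 averaged 65.5 ± 6.16 FPKM in BKO and 67.5 ± 2.20 FPKM in ctrl, and Kcnj3 averaged 44.5 ± 2.57 FPKM in BKO and 48.4 ± 4.96 FPKM in ctrl (SD, n = 5 each), both subunits of neuronal channels opened by G proteins. Among 3 two-pore potassium channels of astrocytes 0 were called, with 1 at an unadjusted p under 0.05. The highest of them, Kcnk1, averaged 104 ± 5.30 FPKM in BKO and 93.1 ± 8.48 FPKM in ctrl (SD, n = 5 each; log2 fold change 0.16, SE 0.0602, limma adjusted p = 0.163).

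Atp1b2 encodes the beta subunit of the glial sodium pump, and it rose. Atp1b2 was at 348, 392, 364, 384 and 347 FPKM in BKO 1 to 5, against 279, 284, 272, 312 and 288 FPKM in ctrl 1 to 5. The highest ctrl library, ctrl 4, lay below BKO 5, the lowest BKO library. The means were 367 ± 20.7 FPKM in BKO and 287 ± 15.4 FPKM in ctrl (SD, n = 5 each), a log2 fold change of 0.35 (SE 0.0484, limma adjusted p = 0.000268). Atp1b1, the main beta subunit of neurons, averaged 1512 ± 39.2 FPKM in BKO and 1568 ± 69.0 FPKM in ctrl (SD, n = 5 each; log2 fold change -0.052, SE 0.0419, limma adjusted p = 0.587).

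The genes that hold the channels in place did not pass the test. Dag1 encodes dystroglycan, the receptor that binds laminin and agrin outside the cell and dystrophin inside it. It was at 35.5, 36.5, 33.5, 34.9 and 31.6 FPKM in BKO 1 to 5, against 35.6, 36.8, 35.04, 35.02 and 32.4 FPKM in ctrl 1 to 5, and the groups overlapped. The log2 fold change was -0.023 (SE 0.0525, 95% interval -0.14 to 0.090, limma adjusted p = 0.880).

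Dtna encodes alpha-dystrobrevin, which joins dystrophin to the syntrophins. It was at 59.5, 57.7, 55.7, 57.7 and 58.4 FPKM in BKO 1 to 5, against 55.3, 58.8, 53.6, 56.7 and 54.1 FPKM in ctrl 1 to 5, and the groups overlapped. The log2 fold change was 0.053 (SE 0.0414, 95% interval -0.035 to 0.14, limma adjusted p = 0.569). Its exons overlap those of Gm47898, a gene on the opposite strand that the table lacks, and whether the counting used strand is not given in the sources used here.

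Of 12 tested partners of the complex, 0 were called higher and 0 lower, with 2 at an unadjusted p under 0.05 and a median log2 fold change of -0.073. Dtnb, the other dystrobrevin, averaged 50.2 ± 1.96 FPKM in BKO and 51.6 ± 3.33 FPKM in ctrl (SD, n = 5 each; log2 fold change -0.038, SE 0.0516, limma adjusted p = 0.779). Sgce, a sarcoglycan, averaged 25.3 ± 0.262 FPKM in BKO and 28.1 ± 1.17 FPKM in ctrl (SD, n = 5 each) with no overlap, and its log2 fold change of -0.15 (SE 0.0465) missed the threshold at a limma adjusted p of 0.0796.

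The 12 laminin, agrin and other ligand genes were all tested and 0 were called, with 3 at an unadjusted p under 0.05 and a median log2 fold change of 0.14. These 3 were laminin genes and higher in BKO: Lama5 (log2 fold change 0.33), Lamb1 (0.19) and Lamb2 (0.18), at limma adjusted p of 0.193 to 0.277. Only Lama2 and Slit2 had a negative log2 fold change. Agrn, whose product agrin organises the endfoot arrays, averaged 46.8 ± 3.48 FPKM in BKO and 44.7 ± 2.28 FPKM in ctrl (SD, n = 5 each; log2 fold change 0.064, SE 0.0579, limma adjusted p = 0.641).

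Mlc1 and Hepacam, the MLC1 pair, did not pass the test either. Mlc1 encodes the membrane protein MLC1, whose loss gives a leukodystrophy with swelling. It was at 107, 109.7, 105, 98.4 and 96.3 FPKM in BKO 1 to 5, against 113, 94.99, 100.3, 113 and 114 FPKM in ctrl 1 to 5, and the groups overlapped. The log2 fold change was -0.052 (SE 0.0585, 95% interval -0.18 to 0.074, limma adjusted p = 0.723).

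Hepacam encodes GlialCAM, the adhesion protein that escorts MLC1 to junctions. It was at 47.2, 50.8, 48.9, 51.3 and 43.7 FPKM in BKO 1 to 5, against 56.6, 48.6, 50.5, 55.1 and 57.8 FPKM in ctrl 1 to 5. BKO 1 and BKO 5 lay below all ctrl libraries, and the other 3 BKO libraries lay within the ctrl range. The log2 fold change was -0.15 (SE 0.060, 95% interval -0.28 to -0.020), with an unadjusted p of 0.0263 and a limma adjusted p of 0.201.

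The promoter windows of this pair, which did not pass the test, are shown with the same motifs in capitals. They lie at chr15:88978554-88978803 on the minus strand for Mlc1 and at chr9:37367356-37367605 on the plus strand for Hepacam, in GRCm38.p6.
Mlc1: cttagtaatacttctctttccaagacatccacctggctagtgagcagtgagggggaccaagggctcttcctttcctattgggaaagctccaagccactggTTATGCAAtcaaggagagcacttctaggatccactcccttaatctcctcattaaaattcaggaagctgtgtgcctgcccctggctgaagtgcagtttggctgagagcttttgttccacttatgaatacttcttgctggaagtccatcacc
Hepacam: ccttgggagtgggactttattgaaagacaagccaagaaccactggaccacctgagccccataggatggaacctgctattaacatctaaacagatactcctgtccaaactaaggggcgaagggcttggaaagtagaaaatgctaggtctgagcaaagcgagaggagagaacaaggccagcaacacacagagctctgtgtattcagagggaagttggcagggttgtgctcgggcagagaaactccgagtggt
The window of Mlc1 was at 48.0% G and C and held 1 C/EBP core 150 bases before the start. The window of Hepacam was at 50.4% G and C and held 0 matches to the 4 motifs. Dag1, also not called, had 2 overlapping windows at 67.6% and 74.8% G and C, each with 3 GC boxes, so a GC box was found both in genes that were called and in one that was not.

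Around this pair, 1 of 4 tested partners rose and 0 fell. Lrrc8a, the essential subunit of the volume-regulated anion channel, was at 34.1, 38.1, 37.9, 35.8 and 35.5 FPKM in BKO 1 to 5, against 27.4, 26.1, 27.4, 25.7 and 27.1 FPKM in ctrl 1 to 5. The groups were wide apart (log2 fold change 0.43, SE 0.0481, limma adjusted p = 3.69e-05). Clcn2, the chloride channel that GlialCAM also binds, averaged 36.6 ± 3.32 FPKM in BKO and 37.1 ± 2.50 FPKM in ctrl (SD, n = 5 each; log2 fold change -0.020, SE 0.0669, limma adjusted p = 0.921). Gprc5b, an orphan receptor that binds both proteins, averaged 79.2 ± 2.19 FPKM in BKO and 83.8 ± 5.47 FPKM in ctrl (SD, n = 5 each; log2 fold change -0.080, SE 0.0476, limma adjusted p = 0.431).

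Among the cotransporters that move potassium and chloride together, calls went in both directions. Of 6 ion transport genes tested 2 rose and 1 fell. Slc12a4, a potassium-chloride exporter, averaged 13.4 ± 0.310 FPKM in BKO and 9.13 ± 0.972 FPKM in ctrl (SD, n = 5 each; log2 fold change 0.53, SE 0.0741, limma adjusted p = 0.000307). Slc12a7, an exporter of the same family, averaged 2.04 ± 0.351 FPKM in BKO and 0.806 ± 0.241 FPKM in ctrl (SD, n = 5 each), with a log2 fold change of 0.97 (SE 0.159, limma adjusted p = 0.00122). At such low levels the size depends on the 0.5 added to the FPKM. The log2 fold change of Slc12a7 was 1.27 with 0.1 added and 0.75 with 1 added, and its call was kept. Slc12a2, the importer of sodium, potassium and chloride known as NKCC1, averaged 14.2 ± 0.699 FPKM in BKO and 18.5 ± 1.80 FPKM in ctrl (SD, n = 5 each; log2 fold change -0.37, SE 0.0715, limma adjusted p = 0.00501). In each of the 3 the groups did not overlap. Slc12a5, the exporter of neurons, averaged 170.4 ± 3.76 FPKM in BKO and 172 ± 5.85 FPKM in ctrl (SD, n = 5 each) and was not called.

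**Figure D2:**
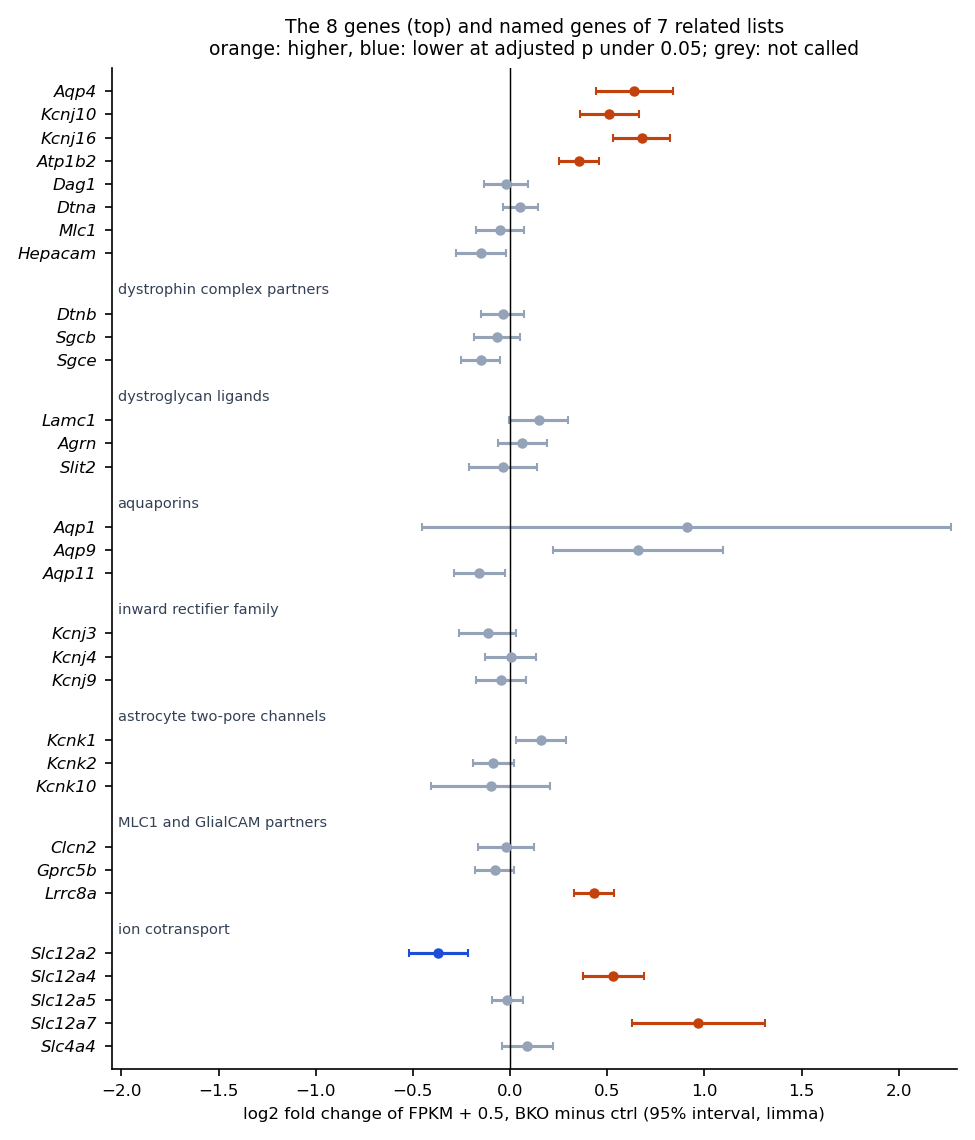
Log2 fold changes of FPKM + 0.5, BKO minus ctrl, with limma's 95% interval, for the 8 genes at the top and for the named genes of the 7 related lists under them. Aqp4, Kcnj10, Kcnj16, Atp1b2, Lrrc8a, Slc12a4 and Slc12a7 are called higher, Slc12a2 lower, and the intervals of Dag1, Dtna and Mlc1 include 0.

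A ratio of 2 genes within a library does not depend on how the library was scaled. Of such ratios 4 are given, each compared with an exact permutation test over libraries, 2-sided, whose smallest possible p is 0.00794, with p-values adjusted over the 6 ratios computed, and none of the 4 passed. The ratio of Kcnj16 to Kcnj10 was 0.445 ± 0.0309 in BKO and 0.395 ± 0.0435 in ctrl (SD, n = 5 each; log2 difference 0.18, exact p = 0.0794, adjusted p = 0.143). The ratio of Aqp4 to Kcnj10 was 1.04 ± 0.178 in BKO and 0.945 ± 0.0801 in ctrl (SD, n = 5 each; log2 difference 0.13, exact p = 0.302, adjusted p = 0.333), and without BKO 4 the log2 difference was 0.031.

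Mlc1 over Hepacam was 2.14 ± 0.131 in BKO and 1.99 ± 0.0353 in ctrl (SD, n = 5 each; log2 difference 0.098, exact p = 0.0476, adjusted p = 0.143). It exceeded every ctrl value in 4 BKO libraries and was under each of them in BKO 4, at 1.92. Without BKO 4, the only BKO library that went the other way, the log2 difference was 0.14 at an adjusted p of 0.0476 by the exact test. The 4 BKO libraries left all exceeded every ctrl library, so the unadjusted exact p was the smallest possible. That outcome followed from which library was left out and adds no support. With any other library left out the adjusted p of that test was 0.131 to 0.310. Dtna over Dag1 was 1.68 ± 0.0992 in BKO and 1.59 ± 0.0562 in ctrl (SD, n = 5 each; log2 difference 0.077, exact p = 0.0952, adjusted p = 0.143), and without BKO 5 the log2 difference was 0.043.

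**Figure D3:**
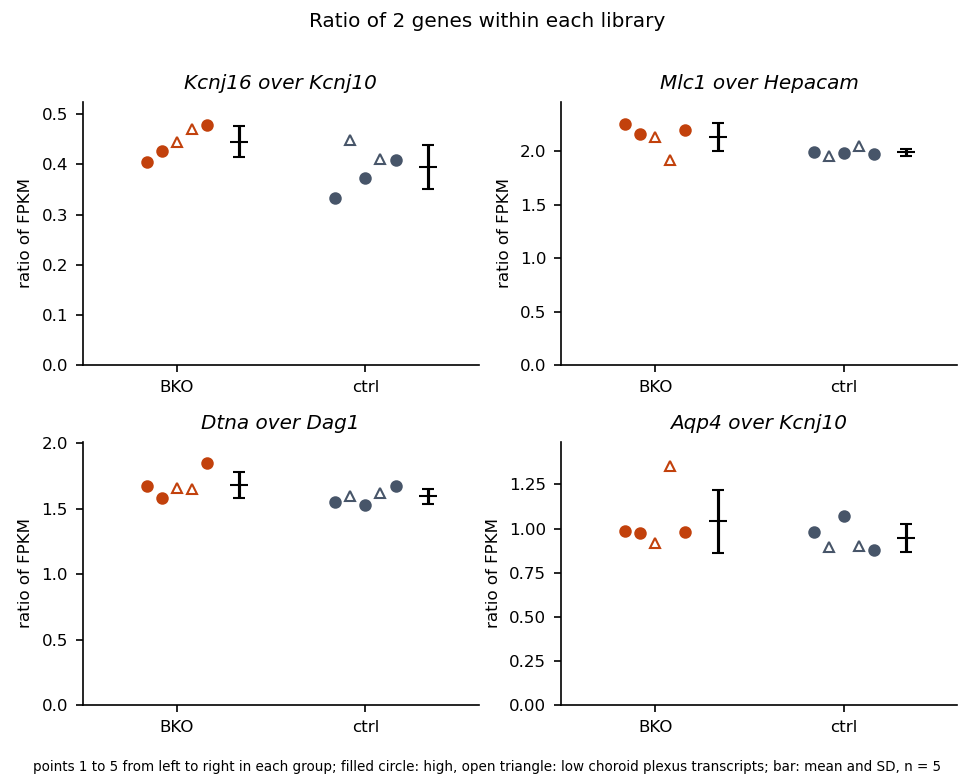
Ratio of the FPKM of 2 genes in the same library, 1 panel a ratio, with each point 1 library (5 BKO at left, 5 ctrl at right) and the bar the mean with its SD, on axes that start at 0. All 4 ratios overlap between the groups, and Mlc1 over Hepacam lies at 1.92 to 2.26 in BKO and 1.96 to 2.05 in ctrl.

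The genes whose profile over the 10 libraries was nearest to that of each called gene were sought among 10944 genes with a mean of at least 5 FPKM, by the root mean square difference of centred log2 values. The measure includes the difference between the groups. Near to Atp1b2 were Lonp1 (0.0600), which was nearest, and Myo10 (0.0643). Nearest to Kcnj10 were Eps8 (0.0889), Cnn3 (0.0930) and Gna13 (0.0939). Nearest to Kcnj16 were Anxa5 (0.0983), Vim (0.1002) and Mbd2 (0.101). Nearest to Aqp4 were Serpinf1 (0.113), Ctsc (0.123) and Igfbp2 (0.125), at larger differences than for the other 3 genes.

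Astrocyte genes as a whole moved both ways in these libraries. Of 15 other astrocyte identity markers 3 rose and 3 fell, with a median log2 fold change of 0.026. Their summed level was 3540 to 3762 FPKM in BKO and 3552 to 3998 FPKM in ctrl. An unadjusted limma p under 0.05 was reached by 8 of the 15, against 17.5% of all genes tested. Among these 8, Glul (log2 fold change -0.15, limma adjusted p = 0.0684) and Gjb6 (log2 fold change -0.21, limma adjusted p = 0.200) were lower but not called. Aldh1l1, a folate enzyme that marks astrocytes, rose (log2 fold change 0.51, SE 0.0486, limma adjusted p = 8.12e-06), and so did the glutamate transporter Slc1a3 (log2 fold change 0.19, SE 0.0425, limma adjusted p = 0.0131) and Acsl6 (log2 fold change 0.20, SE 0.0458, limma adjusted p = 0.0187). Ntsr2 (log2 fold change -0.36, SE 0.0582, limma adjusted p = 0.00113), Mfge8 (log2 fold change -0.34, SE 0.0616, limma adjusted p = 0.0031) and Id4 (log2 fold change -0.21, SE 0.0492, limma adjusted p = 0.018) fell. The call of Acsl6 was lost without ctrl 2 or ctrl 3, and that of Id4 without BKO 3, BKO 4 or ctrl 3, at limma adjusted p of 0.0517 to 0.0579. Slc1a3, Acsl6, Ntsr2, Mfge8 and Id4 passed neither in the libraries rich in choroid plexus transcripts alone nor in those poor in them, which hold fewer libraries. Their log2 fold changes kept their sign there. They were 0.22 in the rich and 0.15 in the poor libraries for Slc1a3, 0.15 and 0.26 for Acsl6, -0.35 and -0.37 for Ntsr2, -0.29 and -0.42 for Mfge8, and -0.22 and -0.21 for Id4, in the same order.

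Of 12 tested markers of reactive astrocytes 8 rose and 0 fell, and Lcn2, Timp1, S1pr3 and Cp were not called. The summed level of the 13 markers listed, with Steap4 untested, was 469 to 638 FPKM in BKO and 146 to 165 FPKM in ctrl. Most of that sum in BKO was Gfap. Gfap, the filament protein that reactive astrocytes make, was at 417, 495, 379, 523 and 361 FPKM in BKO 1 to 5, against 85.8, 76.8, 92.4, 86.6 and 85.6 FPKM in ctrl 1 to 5 (log2 fold change 2.33, SE 0.0907, limma adjusted p = 1.23e-09). Aqp4 and Gfap placed the 5 BKO libraries in the same order, BKO 4, 2, 1, 3 and 5 from high to low, while their orders of the ctrl libraries differed; this was noticed after the values were seen. Kcnj10 placed BKO 4 lowest. The part of reactive astrocytes in the higher levels of the 4 genes was not tested.

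Other cell types moved too. All 12 oligodendrocyte markers fell, with a median log2 fold change of -1.42 and a summed level of 1008 to 1366 FPKM in BKO and 2995 to 3578 FPKM in ctrl. Of 10 neuronal markers 3 fell and 0 rose, at 4305 to 4711 FPKM in BKO and 4627 to 5122 FPKM in ctrl. For endothelial cells, which the endfeet cover, 0 of 8 markers were called, at 82.6 to 120 FPKM in BKO and 82.4 to 103 FPKM in ctrl. All 8 log2 fold changes were positive, at 0.12 to 0.41 with a median of 0.19. Among them 2 reached an unadjusted limma p under 0.05. For mural cells 0 of 8 markers were called, at 93.3 to 118 FPKM in BKO and 103 to 118 FPKM in ctrl. Their median log2 fold change was 0.022, with 1 at an unadjusted limma p under 0.05. Of 8 microglial markers 1 rose, C1qa, at a summed level of 345 to 386 FPKM in BKO and 304 to 367 FPKM in ctrl. Of the 8, 4 reached an unadjusted limma p under 0.05: C1qa, Aif1 and Trem2, which were higher, and P2ry12, which was lower. Their log2 fold changes were 0.39, 0.35, 0.23 and -0.16 in that order. Of 6 meningeal markers 1 rose, Igfbp2, which is also among the nearest profiles of Aqp4, and the others were not called. Dcn, the next highest of them, averaged 16.3 FPKM in BKO and 20.4 FPKM in ctrl. For ependyma 0 of 6 markers were called. The part of these cell types in the results was not tested.

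**Figure D4:**
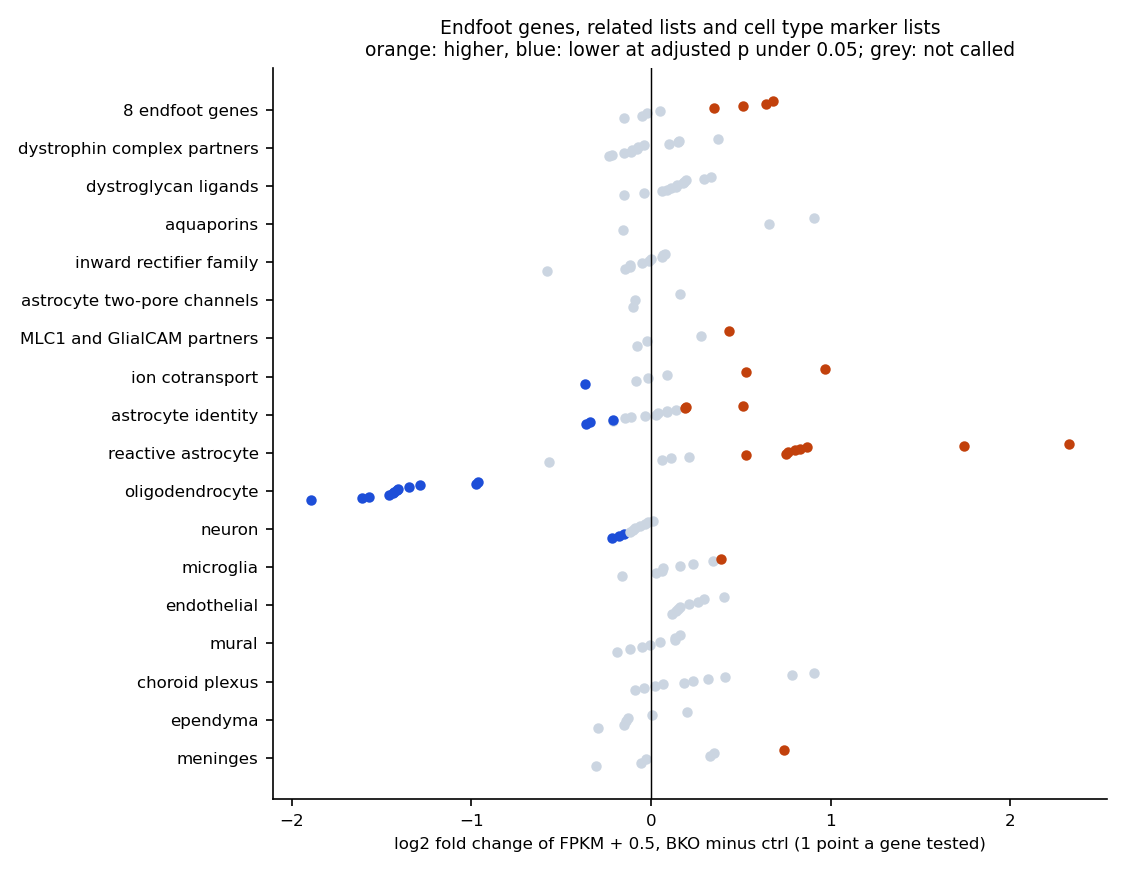
Log2 fold changes of FPKM + 0.5, BKO minus ctrl, 1 point a gene tested, for the 8 genes, 7 related lists and 10 cell type marker lists, with genes called higher in orange, lower in blue and the rest in grey. The 8 genes show 4 orange and 4 grey points, all 12 oligodendrocyte markers are blue and 8 of 12 reactive astrocyte markers are orange.

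The called genes kept their direction in the libraries rich and in those poor in choroid plexus transcripts, each taken alone. The groups were not matched for the summed level of these transcripts within either subset. It was 2437 to 2768 FPKM in BKO and 1125 to 2624 FPKM in ctrl in the rich libraries. In the poor libraries it was 73.5 to 95.3 FPKM in BKO and 46.6 FPKM in ctrl. The part of this remaining difference in the results was not tested. Among the 6 libraries rich in these transcripts, 3 BKO against 3 ctrl, the log2 fold changes were 0.50 for Aqp4 (SE 0.0858, limma adjusted p = 0.0110), 0.49 for Kcnj10 (SE 0.0900, limma adjusted p = 0.0157), 0.72 for Kcnj16 (SE 0.0997, limma adjusted p = 0.00311) and 0.37 for Atp1b2 (SE 0.0651, limma adjusted p = 0.0128). Among the 4 libraries poor in them, 2 BKO against 2 ctrl, they were 0.85 for Aqp4 (SE 0.133, limma adjusted p = 0.0222), 0.54 for Kcnj10 (SE 0.0822, limma adjusted p = 0.0195) and 0.62 for Kcnj16 (SE 0.104, limma adjusted p = 0.0286), while Atp1b2, at 0.33 (SE 0.0671), missed the threshold with a limma adjusted p of 0.0640. Aqp4 thus had the widest gap between the subsets, a difference that was not tested. Its lowest ctrl levels, 32.5 and 32.7 FPKM, were those of ctrl 2 and ctrl 4, the 2 ctrl libraries poor in choroid plexus transcripts. Hepacam was at -0.22 (SE 0.0786) in the rich and at -0.047 (SE 0.0880) in the poor libraries, called in neither. Of the companion genes, Lrrc8a was called in both subsets. In the libraries poor in choroid plexus transcripts Slc12a4 was at 0.53, Slc12a7 at 0.64 and Slc12a2 at -0.25 on the log2 scale, and none of these 3 passed there (limma adjusted p = 0.109 to 0.448).

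**Figure D5:**
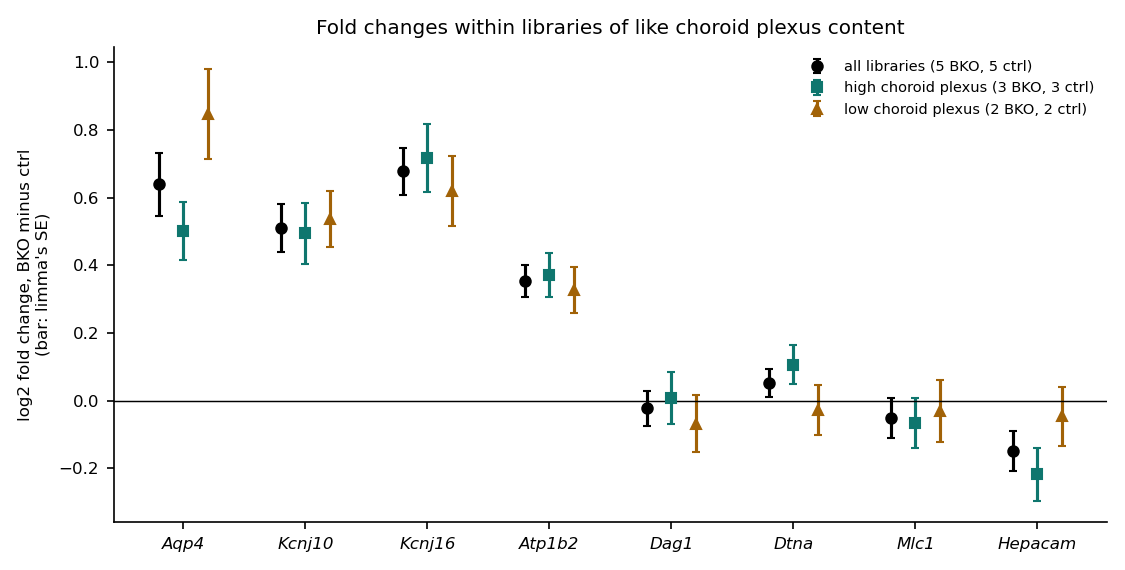
Log2 fold changes of the 8 genes, BKO minus ctrl, with limma's SE, over all 10 libraries, over the 6 with high and over the 4 with low choroid plexus transcripts. Aqp4, Kcnj10, Kcnj16 and Atp1b2 lie between 0.33 and 0.85 in each, and Dag1, Dtna, Mlc1 and Hepacam lie between -0.22 and 0.11.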

How the data were processed

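Per the labels' protocols, Trizol was used to extract total RNA of brain cortex, and an MGIEasy kit to build the libraries. The authors deposited 1 table of FPKM values for 22198 genes in 10 columns, 1 for each library, with 0 columns of other samples. STAR, HTSeq and the build mm39 are named per the submitters' processing notes, without versions. How the FPKM were computed and filtered is not given in the sources used here. FPKM carry no counts, so depth and counting error are unknown, and no count test was run.

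Groups came from the labels. The filter kept 14447 genes that reached 0.5 FPKM in 5 or more libraries, and these were fitted as log2(FPKM + 0.5) with limma 3.58.1 in R 4.3.3 (trend in the variances, 2-sided). A gene was called at a Benjamini-Hochberg adjusted p under 0.05 over all genes tested. A fold change on this scale understates that of low genes. SE is limma's moderated standard error. The procedure was tested on simulated data. Ratios were compared by an exact permutation test with Benjamini-Hochberg adjustment over all 6. Promoters came from RefSeq for GRCm38.p6, another build than the files', so no coordinates of the measurements are given.

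The members and all lists were chosen with earlier results of these data known. Some genes of the companion lists, 2 of those lists and 2 of the ratios are not reported here, and counts are over the genes reported. Named were the 8 genes, Chchd3, called genes and up to 3 of the highest genes of each companion list, and nearest profiles, up to 3, of each called member. Kcnj14, Atp1b1, Gfap, Lama2, Lama5, Lamb1, Lamb2 and the marker genes given by name were named after their values were seen. Same-numbered libraries of the 2 groups were not treated as paired. The correlations of their deviations were -0.17 to 0.086, which does not settle whether they were paired by design. Alternatives were other pseudocounts, filters, scalings and fits, a replicate block, leaving out each library, and, chosen after seeing the data, subsets by choroid plexus transcripts at a sum of 500 FPKM and a term for them.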

Additional observations from a re-analysis of the deposited data

Results flagged for a closer look

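In 7 of 70 groups of 5 libraries, 1 library stood apart from the rest: its gap to the nearest other library, as a share of the group's range, was above Dixon's 95% critical value. Chance gives about 5% of groups. Among the 8 endfoot genes this held for Kcnj16, where BKO 2 was at 27.1 FPKM and the other BKO libraries at 23.6 to 24.6 FPKM (share 0.715). For the ratio of Aqp4 to Kcnj10, BKO 4 was at 1.36 and the other BKO libraries at 0.918 to 0.984 (share 0.848). BKO 4 had the highest Aqp4 and the lowest Kcnj10 of its group.

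The other 5 were in companion genes. For Agrn, BKO 1 was at 40.6 FPKM and the other BKO libraries at 48.2 to 48.5 FPKM (share 0.960), and ctrl 4 was at 48.6 FPKM with the other ctrl libraries at 43.0 to 44.6 FPKM (share 0.711). For Lamc1, BKO 3 was at 7.54 FPKM and the other BKO libraries at 7.90 to 7.99 FPKM (share 0.800). For Kcnj4, BKO 2 was at 98.3 FPKM and the other BKO libraries at 116 to 122 FPKM (share 0.751). For Sgcb, ctrl 2 was at 53.0 FPKM and the other ctrl libraries at 45.6 to 47.7 FPKM (share 0.716).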

How the results depend on the processing

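Under the 20 alternatives other than the choroid plexus ones Aqp4, Kcnj10, Kcnj16 and Atp1b2 were called higher and 0 of the 8 genes lower. With 1 library left out their log2 fold changes were 0.57 to 0.69, 0.46 to 0.55, 0.64 to 0.72 and 0.33 to 0.38 in that order of genes. Dag1 changed sign without BKO 5 (leaving out 1 library gave -0.050 to 0.0068) and in the 6 libraries rich in choroid plexus transcripts (0.0076). Dtna did so in the 4 poor ones (-0.027), where Atp1b2 was at 0.33 and 3 of the 8 genes were called. Over all genes, 221 were higher and 172 lower in the rich libraries, and 143 and 101 in the poor ones, with fewer libraries in each. Companion genes called higher were 3, and 2 with the filter at 2 FPKM, 4 with library quality weights, 3 to 4 with 1 library left out (4 without ctrl 5) and 1 in the poor libraries. Those called lower were 1, and 2 without the filter, 2 with quantile normalization, 1 to 2 with 1 library left out (2 without BKO 2) and 0 in the poor libraries. The replicate block gave 415 genes higher and 287 lower, and left the 4 members called. Whether the numbers pair the libraries is unknown, and 3 of 10 correlated best with their own number. With an equal sum for each library 559 genes were higher and 297 lower. With 1 library left out, the log2 difference was 0.078 to 0.14 for Mlc1 over Hepacam, 0.031 to 0.18 for Aqp4 over Kcnj10, 0.043 to 0.10 for Dtna over Dag1 and 0.12 to 0.23 for Kcnj16 over Kcnj10. Values near 0 changed sign for Clcn2 (0.0019 with equal sums, -0.057 to 0.028 with 1 left out) and Kcnj4 (-0.042 in the rich libraries, -0.027 to 0.059 with 1 left out). The cause of these changes was not tested. Leaving out libraries over 3 times the median choroid plexus level was not run, since 0 libraries were. Without counts, depth sets no stated limit here.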

Other observations

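Kcnj14, a scarce inward rectifier, was at 0.390, 0.830, 0.450, 0.720 and 0.590 FPKM in BKO 1 to 5, against 1.12, 1.05, 0.910, 1.19 and 1.35 FPKM in ctrl 1 to 5. All 5 BKO libraries lay below all 5 ctrl libraries, a separation that 3.09% of all genes tested showed in that direction. The log2 fold change was -0.58 (SE 0.162, limma adjusted p = 0.0524), with an adjusted p between 0.0238 and 0.117 over the alternatives other than the choroid plexus ones. Aqp9 likewise stood near the threshold, with an adjusted p between 0.0410 and 0.193 over the same alternatives, and passed with library quality weights (0.0425) and without ctrl 5.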
